A study of Mus musculus with 23 samples.

Results

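Alkaline phosphatase genes were described in the small intestine of ICR mice given the anticancer drug busulfan and then saline or a microbiota transplant. The family holds 4 of the 19215 entries of the expression table, namely Akp3, Alpi, Alppl2 and Alpl (NCBI Gene 11648, 76768, 11650 and 11647), all found by their symbols. It was chosen by values of these libraries, because Akp3 rose after A10-FMT in set 1 and Alppl2 fell after Con-FMT. Those comparisons are therefore given below as descriptions with no test. Others that share the libraries behind them are descriptions for the gene picked from those libraries, Akp3 or Alppl2. For Alpi and for the genes of other lists they were tested, although they use libraries that led to the choice.

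The 23 libraries are from male mice given busulfan once at 40 mg/kg at 3 weeks of age, and no library of a mouse without busulfan was analysed here. The Sa mice then had saline by gavage, while Con-FMT, A10-FMT and A100-FMT mice (coded IMC, IMA10 and IMA100 in the labels) had microbiota of donors dosed with water, or with alginate oligosaccharides (AOS) at 10 mg/kg or 100 mg/kg. The donors' luminal contents were pooled within each donor group, so each transplant stands for 1 inoculum and not for separate donors. Per the study's schedule the recipients were sampled at 5 weeks of age. The libraries carry 2 further codes, I1 and I2, called set 1 and set 2 here, whose meaning is not given in the sources used here. Each group had 3 libraries per set, except Sa of set 1 with 2. Nothing says whether a set was a separate cohort, tissue piece or run, nor whether libraries of both sets share mice, so p-values measure only the spread between these libraries.

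Alkaline phosphatases remove phosphate groups from many substrates at alkaline pH. The intestinal forms are held by a glycosylphosphatidylinositol (GPI) anchor on the microvilli of absorptive enterocytes, are shed into the lumen, and are known to dephosphorylate bacterial lipopolysaccharide (LPS) and free nucleotides. In the mouse, Akp3 encodes the form typical of the duodenum, Alpi a form made along the whole intestine, Alppl2 a form first described in the embryo, and Alpl the tissue-nonspecific enzyme of bone, liver and kidney.

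The 3 intestinal and embryonic genes are neighbours on chromosome 1 in GRCm38.p6, with Alppl2 at chr1:87086690-87095934, Alpi at chr1:87098002-87101606 and Akp3 at chr1:87124954-87128728. A pseudogene, Akp-ps1, lies beside them at chr1:87068030-87071005, whereas Alpl is alone on chromosome 4 at chr4:137741731-137796384. The 250 bases before the annotated start are printed here for the 3 neighbours, because these genes share stretches there and because Akp3 and Alpi were both highest in the same group. Alppl2 was not highest in that group, and had its highest mean in Sa of set 2. The sequences are RefSeq promoter windows of GRCm38.p6, and capitals mark 2 runs of 13 bases found in all 3 windows. The windows are chr1:87124704-87124953 (plus strand) for Akp3, chr1:87101607-87101856 (minus strand) for Alpi and chr1:87089929-87090178 (minus strand) for Alppl2, the last one inside the annotated span of its gene.
Akp3: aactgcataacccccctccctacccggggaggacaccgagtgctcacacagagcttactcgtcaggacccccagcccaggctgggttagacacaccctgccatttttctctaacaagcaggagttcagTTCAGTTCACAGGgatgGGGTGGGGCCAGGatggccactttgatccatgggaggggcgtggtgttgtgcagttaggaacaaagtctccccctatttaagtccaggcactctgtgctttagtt
Alpi: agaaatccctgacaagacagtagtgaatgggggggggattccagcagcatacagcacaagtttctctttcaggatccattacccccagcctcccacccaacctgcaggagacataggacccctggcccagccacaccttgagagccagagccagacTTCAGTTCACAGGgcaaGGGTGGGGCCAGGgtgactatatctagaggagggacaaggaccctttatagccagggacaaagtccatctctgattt
Alppl2: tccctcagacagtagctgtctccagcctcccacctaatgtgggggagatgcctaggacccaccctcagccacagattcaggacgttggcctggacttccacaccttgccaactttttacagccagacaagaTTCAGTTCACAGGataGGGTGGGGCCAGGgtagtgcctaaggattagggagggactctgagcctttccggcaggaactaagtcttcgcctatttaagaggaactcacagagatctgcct

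Both runs were picked as the longest exact matches of these 3 windows, which are themselves among the windows counted here. Their shares over all windows are therefore descriptions and no test. The first shared run, TTCAGTTCACAGG, began 122, 94 and 119 bases before the start of Akp3, Alpi and Alppl2, and was present in 9 of 32851 mouse promoter windows of the same length (0.0274%). The second, GGGTGGGGCCAGG, began 105, 77 and 103 bases before the start and was present in 15 windows (0.0457%). It holds a match to CCACCC, a KLF-like motif, on the opposite strand, and that motif was found in 28.1% of all windows. Other motifs searched on both strands were TATAAA (12.4% of all windows), TTTAT (CDX-like, 37.3%), GATAA (GATA-like, 22.6%) and CAAAG (the core of an HNF4-like site, 48.6%). Alpi alone of the 3 had TATAAA, 33 to 28 bases before the start on the opposite strand, and its TTTAT match overlaps that one. Only exact matches were counted, and variants of these motifs were not searched. Akp3 and Alppl2 shared the run CCTATTTAAG, which began 33 and 32 bases before the start. Akp3 had 2 matches to CAAAG and Alpi had 1, Alppl2 had none, and GATAA was in none of the 3 windows.

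**Figure D1:**
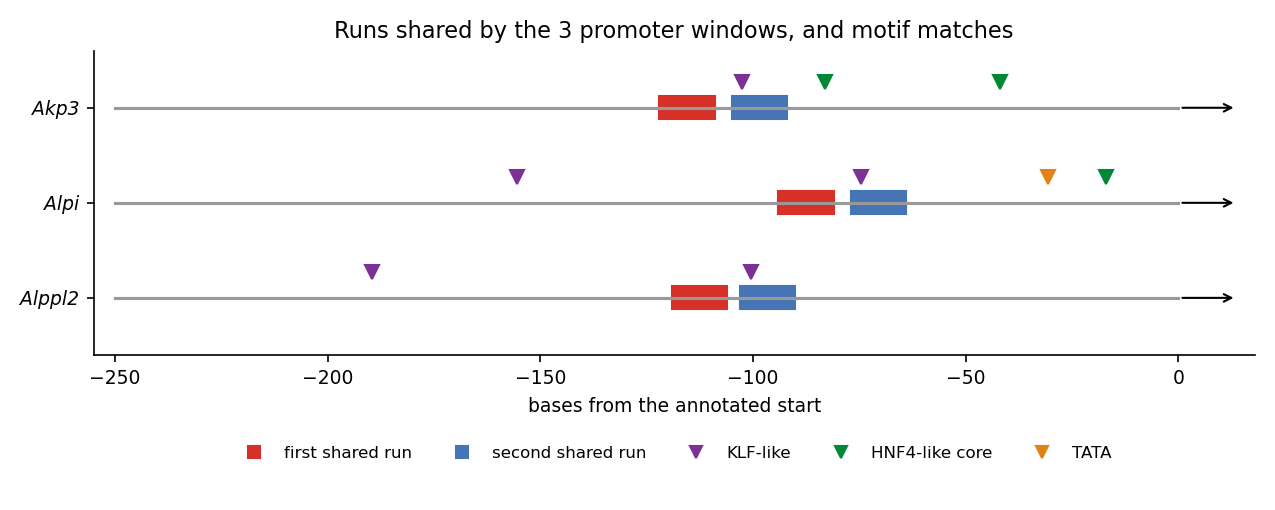
Map of the 250 bases before the annotated starts of Akp3, Alpi and Alppl2, with distance from the start in bases on the x axis. Red and blue boxes are the first and second run shared by all 3 windows, triangles are motif matches on either strand, and the arrow is the start. The runs lie in the same order in each window and nearest to the start in Alpi, where the first begins at 94 bases.

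The transcripts of close copies can share reads. In the longest GENCODE transcripts, Akp3 and Alpi were identical at 81.8% of aligned bases, Alpi and Alppl2 at 77.4% and Akp3 and Alppl2 at 76.4%, whereas identities with Alpl were 63.9% to 64.3%. Of the 50-base windows of Akp3, 35 of 1631 (2.15%) were also in Alpi, and 55 of 2288 windows of Alpi (2.40%) were in Akp3, Alppl2 or Akp-ps1. Alppl2 shared 3 of 2043 windows (0.147%), Alpl shared none, and no window of 100 bases was shared by any of them. How the authors' counting treated reads with several matches is not given in the sources used here, so a part of the Akp3 and Alpi values that such reads could move remains uncertain.

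One library stands apart. Sa replicate 3 of set 1 correlated with the other libraries at r = 0.944 to 0.965, against 0.968 to 0.991 among the 22 others. Its deviation from the median library followed the GC content of the genes (Spearman's rho 0.69 across genes, against -0.22 to 0.22 in the others), and the transcripts of the family are GC-rich (54.5% to 57.5%, at the 75.8th to 89.6th percentile of tested genes). In addition, its description names another column than its title, and that column did not stand apart. It correlated with the 22 other libraries at r = 0.973 to 0.989, and its rho with GC content was -0.09. The column of the title is used. Values with the column of the description, or without the library, are given beside some of the results that it moves. Counts of called genes also moved in comparisons that do not hold this library, and the fit uses 1 estimate of the spread for all groups. Markers of smooth muscle, fibroblasts, endothelium and neutrophils summed to at most 2.11, 0.94, 0.37 and 0.51 FPKM in any library, so the markers of these cell types, which whole intestine contains, were at or near 0. Enterocyte genes were high, with Anpep at 1573 and Vil1 at 694 FPKM on average over the 23 libraries. Sums of FPKM were 556466 to 667957 per library and the depth in reads is unknown.

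Levels are in FPKM (fragments scaled to transcript length and to all mapped fragments), which are per length and allow levels to be set side by side between genes. Alpi was by far the most abundant member, at 343 FPKM on average over the 23 libraries, and ranked 272nd of all entries by mean level. Akp3 averaged 50.3 FPKM (rank 1912) and Alppl2 3.92 FPKM (rank 9066). Alpl averaged 0.0213 FPKM, below the 1 FPKM mean needed for testing, so 3 of the 4 members were tested. Alpi held 74.0% to 95.7% of the summed level of the family in each library. Akp3 was the most variable, with a coefficient of variation of 85.8% and a 20-fold range between its highest and lowest library, whereas Alpi ranged 2.23-fold and Alppl2 2.40-fold (coefficients of 24% and 20.7%).

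**Figure D2:**
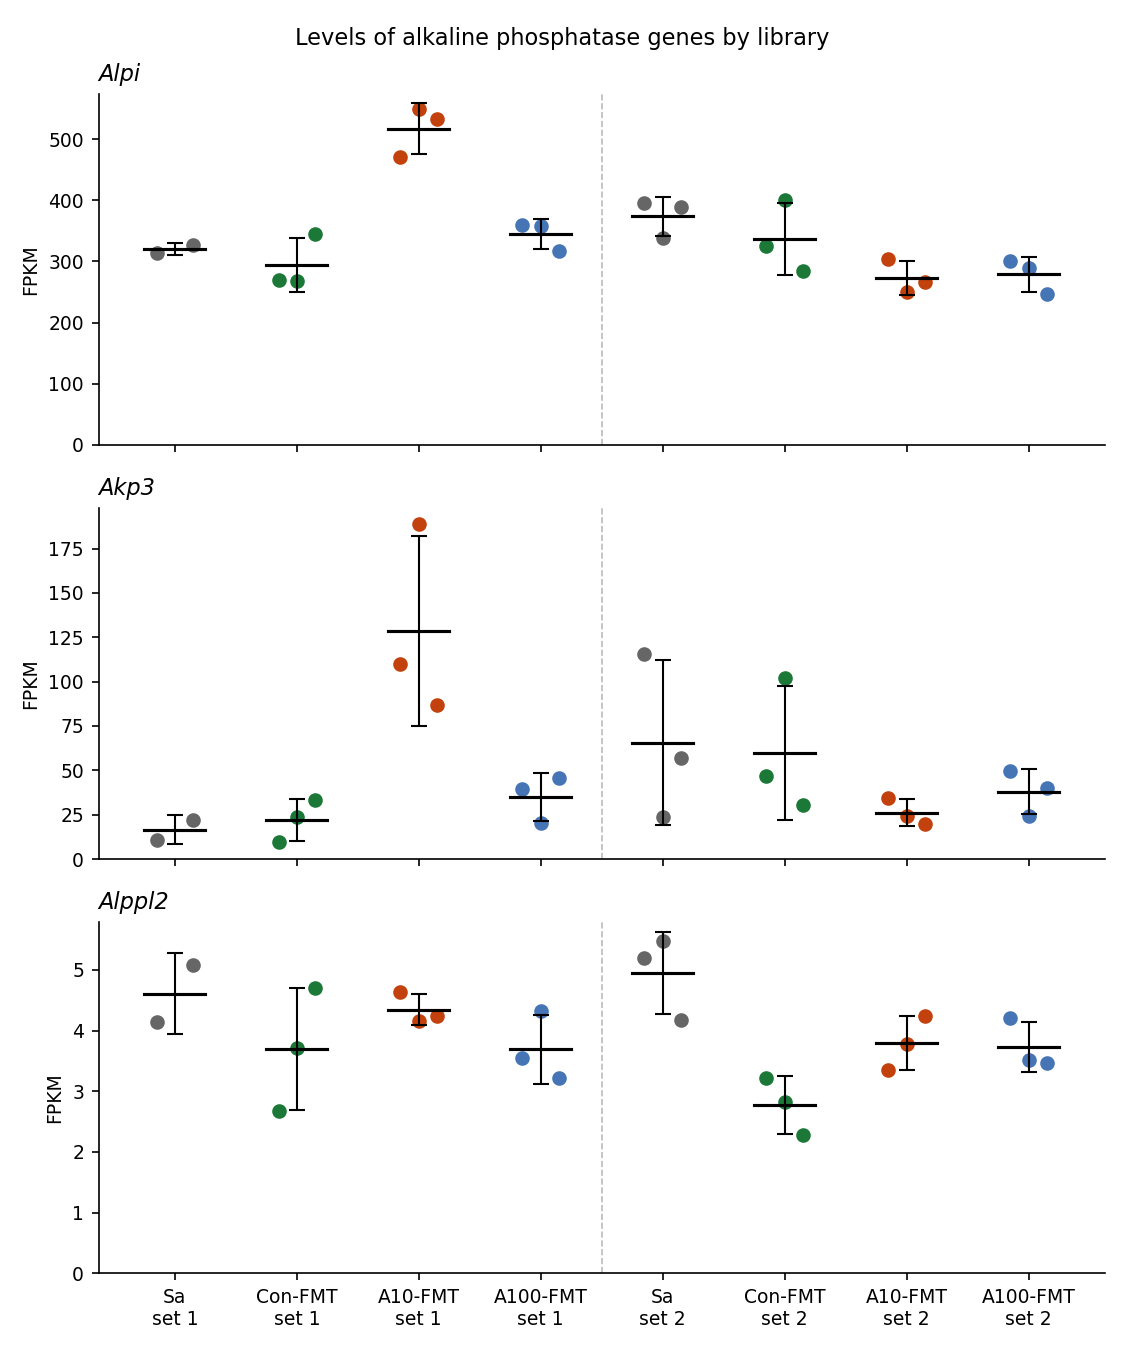
Levels in FPKM of Alpi, Akp3 and Alppl2 on the y axis by group on the x axis, 1 point per library, with the mean (horizontal line) and the SD (error bar) of each group, n = 3 and n = 2 in Sa of set 1. The 3 A10-FMT libraries of set 1 hold the highest Alpi levels, 470.18 to 548.83 FPKM, and the Con-FMT libraries of set 2 the lowest mean of Alppl2, 2.77 FPKM.

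Alpi was higher in A10-FMT than in Con-FMT in set 1, and this was a called difference. Its levels were 470.18, 548.83 and 532.90 FPKM in A10-FMT and 270.39, 268.04 and 344.87 FPKM in Con-FMT of set 1. All 3 A10-FMT libraries were above every Con-FMT library, which held for 12.2% of all genes tested, and the means were 517 ± 41.6 and 294 ± 43.7 FPKM (SD, n = 3 each), a ratio of 1.76. On the log2(FPKM + 1) scale the change was 0.82 (standard error 0.12, 95% interval 0.56 to 1.08, adjusted p = 0.000931 from limma). Of all 11337 genes tested, 16.7% were called in either direction. Alpi was not picked for a value, but these A10-FMT libraries are also the ones that led to the choice of Akp3.

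In A100-FMT of set 1, Alpi was lower than in A10-FMT and was not shown to differ from Con-FMT or Sa. The A100-FMT libraries of set 1 held 359.30, 358.59 and 316.83 FPKM, below A10-FMT and overlapping with Con-FMT and Sa. Alpi fell by 0.58 from A10-FMT to A100-FMT (adjusted p = 0.0137 from limma, standard error 0.12), with all 3 A100-FMT libraries below every A10-FMT library, in a comparison where 5.66% of genes were called and 8.37% lay lower without overlap. Over all genes 448 were called higher and 194 lower there, and 122 and 296 with trimmed-mean scaling. Without A10-FMT replicate 2 or A100-FMT replicate 3 of set 1 this call was lost, with -0.54 (adjusted p = 0.0587 from limma) and -0.52 (adjusted p = 0.0939 from limma), as it was in a fit of the compared groups alone (adjusted p = 0.0528). Con-FMT vs. A100-FMT of set 1 gave 0.24 (95% interval -0.02 to 0.49, adjusted p = 0.509 from limma, 0.406% of genes called) and Sa vs. A100-FMT of set 1 gave 0.10 (95% interval -0.19 to 0.39, adjusted p = 0.567 from limma). Of all genes, 35.2% were called in the latter comparison, and this share depends on Sa replicate 3 of set 1, without which the number called was 27 in place of 3987. The change of Alpi was 0.13 without it and 0.13 with the column of the description.

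In set 2 Alpi was not higher in A10-FMT than in the other groups. Alpi stood at 394.70, 337.53 and 388.56 FPKM in Sa, 325.91, 400.00 and 284.43 FPKM in Con-FMT, 303.80, 249.26 and 266.90 FPKM in A10-FMT, and 300.40, 289.64 and 246.23 FPKM in A100-FMT. All A10-FMT and all A100-FMT libraries of set 2 were below every Sa library, whereas Con-FMT overlapped with each of the other groups. Values without overlap in the lower direction were found for 11.4% of genes in Sa vs. A10-FMT and for 10.1% in Sa vs. A100-FMT. The changes were -0.45 in Sa vs. A10-FMT (standard error 0.12, 95% interval -0.71 to -0.19, adjusted p = 0.104 from limma) and -0.42 in Sa vs. A100-FMT (standard error 0.12, 95% interval -0.68 to -0.16, adjusted p = 0.153 from limma), and neither passed. Only 0.423% and 0.0353% of genes were called in these comparisons (48 and 4), but 352 and 561 with the column of the description. With array quality weights both changes of Alpi did pass (-0.44 and -0.37, adjusted p = 0.013 and 0.0426 from limma). Under these weights 1771 and 1450 of 11337 genes were called. Con-FMT vs. A10-FMT gave -0.29 (adjusted p = 0.349 from limma, 0.379% of genes called) and Con-FMT vs. A100-FMT gave -0.26 (adjusted p = 0.433 from limma) in set 2, the latter with 0 genes called by limma and 1270 at an unadjusted p under 0.05. With the column of the description, 239 genes were called in the latter. A10-FMT and A100-FMT of set 2 differed by 0.03 (95% interval -0.23 to 0.29, adjusted p = 1 from limma, 0.00882% of genes called).

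The difference between the sets was itself tested for Con-FMT vs. A10-FMT, a test added after the Alpi values had been seen. The change of Alpi in set 2 minus that in set 1 was -1.11 on the log2 scale (standard error 0.17, adjusted p = 0.000502 from limma), in a contrast where 20.8% of genes were called. Over all genes the median of this contrast was 0.13 and fell to 0.02 with trimmed-mean scaling, which gave -1.22 for Alpi and turned the split of calls from 1594 higher and 760 lower to 639 and 1043. Within A10-FMT alone, Alpi fell by 0.92 from set 1 to set 2 (standard error 0.12, adjusted p = 6.9e-05 from limma, 30.4% of genes called), with no overlap, as for 14% of genes in that direction. The median over all genes was 0.117 there, and trimmed-mean scaling gave -1.02 for Alpi and 986 genes higher and 1435 lower in place of 2473 and 977. The matching tests for A100-FMT were not called, with -0.50 for the difference of Con-FMT vs. A100-FMT between the sets (adjusted p = 0.244 from limma, 0 genes called and 1483 at an unadjusted p under 0.05) and -0.31 between the sets within A100-FMT (adjusted p = 0.264 from limma, 0 genes called and 1641 at an unadjusted p under 0.05, no overlap, as for 10% of genes lower). With the column of the description, 172 and 440 genes were called in these contrasts. Between the sets, Alpi changed by 0.19 in Con-FMT (adjusted p = 0.95 from limma) and by 0.22 in Sa (adjusted p = 0.215 from limma), where the Sa libraries did not overlap, as for 25.6% of genes higher. In Sa between the sets 38.1% of genes were called (4318), but 6 genes without Sa replicate 3 of set 1 and 525 with the column of the description.

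**Figure D3:**
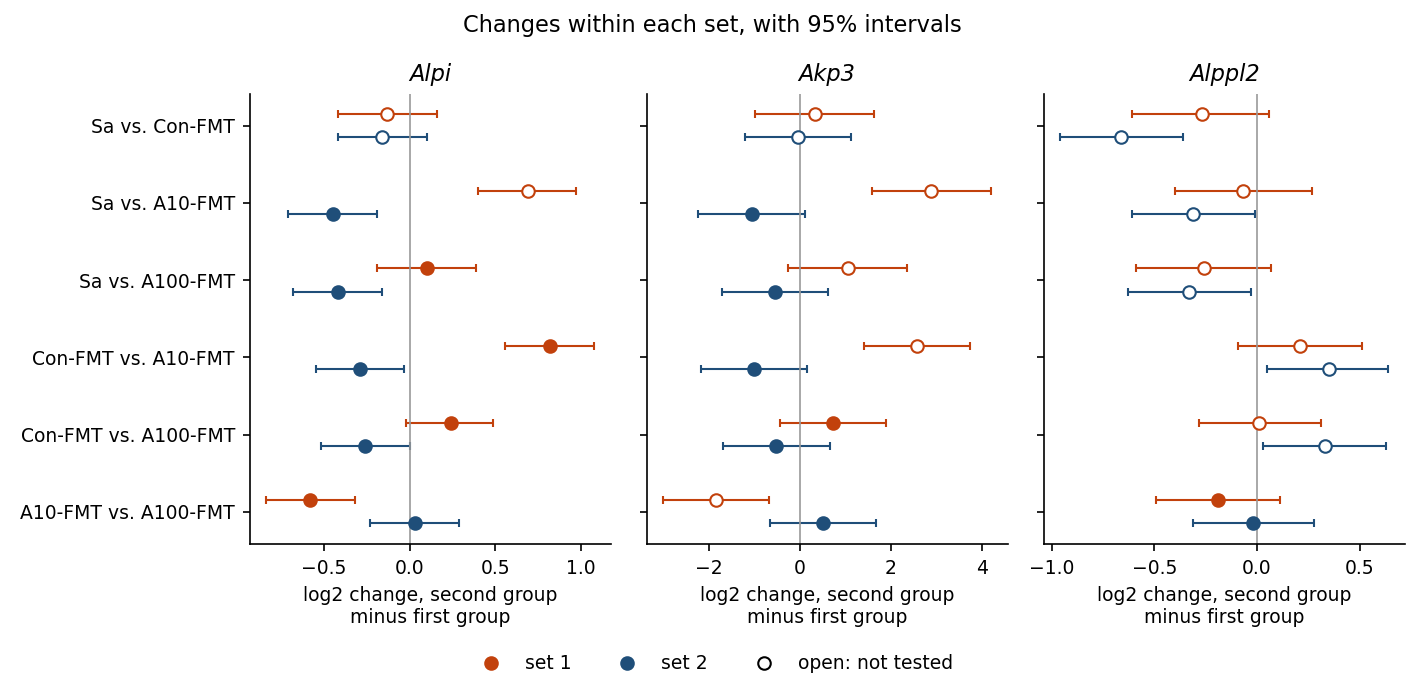
Log2 changes on the log2(FPKM + 1) scale on the x axis for the 6 comparisons of each set on the y axis, second-named group minus first-named group, with 95% intervals from limma. Orange is set 1 and blue is set 2, filled points were tested and open points are descriptions. For Alpi, Con-FMT vs. A10-FMT lies at 0.82 in set 1 and at -0.29 in set 2.

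Akp3 had its highest mean in A10-FMT of set 1, the value it was picked for. The libraries of that group held 110.02, 189.00 and 86.57 FPKM, against 10.71 and 22.24 FPKM in Sa and 9.44, 23.55 and 33.18 FPKM in Con-FMT of set 1. Both A100-FMT replicate 1 and replicate 3 of set 1, at 39.21 and 45.60 FPKM, were above all Sa and Con-FMT libraries of that set, and replicate 2 was at 20.05 FPKM. As a description, the mean in A10-FMT of set 1 was 7.80 times that in Sa (129 ± 53.7 FPKM, SD, n = 3, and 16.5 ± 8.15 FPKM, SD, n = 2), a change of 2.89 on the log2 scale. The groups did not overlap, as for 13.9% of all genes in that direction, and 32% of genes were called in this comparison (3627, against 922 without Sa replicate 3 of set 1, 3829 with the column of the description and 1 with only the compared groups fitted). It was 2.57 with the column of the description, where Sa replicate 3 stood at 35.61 FPKM, and 3.39 without that library. Con-FMT vs. A10-FMT of set 1 gave 2.57 and A10-FMT vs. A100-FMT gave -1.85, which share the A10-FMT libraries.

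In set 2 Akp3 was not higher in A10-FMT than in the other groups. It stood at 115.60, 23.77 and 57.05 FPKM in Sa, 46.55, 102.08 and 30.44 FPKM in Con-FMT, 34.63, 24.04 and 19.66 FPKM in A10-FMT, and 49.52, 24.22 and 40.10 FPKM in A100-FMT. The spread within Sa and Con-FMT of set 2 was as wide as the differences between the groups, and all groups of the set overlapped. No tested comparison of Akp3 passed, and at most 0.423% of all genes were called in any of them. Sa vs. A10-FMT of set 2 gave -1.06 (standard error 0.56, 95% interval -2.24 to 0.11, adjusted p = 0.404 from limma), and -0.52 without Sa replicate 1, the highest library of the set. Con-FMT vs. A10-FMT gave -1.02 (adjusted p = 0.495 from limma), and -0.55 without Con-FMT replicate 2, and the intervals of the other pairs of set 2 reached from -1.73 to 1.68. The standard error of 0.56 compares with 0.12 for Alpi, so smaller changes of Akp3 were not detectable here.

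Con-FMT vs. A100-FMT of set 1 gave 0.72 for Akp3 (95% interval -0.45 to 1.90, adjusted p = 0.714 from limma), and 0.23 without Con-FMT replicate 1 or 1.09 without Con-FMT replicate 3 of that set. The same comparison in set 2 differed from it by -1.24 (adjusted p = 0.535 from limma). From set 1 to set 2, Akp3 changed by 1.38 in Con-FMT (standard error 0.56, unadjusted p = 0.0238, adjusted p = 0.773 from limma, 0.00882% of genes called) and by 0.14 in A100-FMT (adjusted p = 0.945 from limma). In the order of the 8 group means, from A10-FMT of set 1 at 129 FPKM to Sa of set 1 at 16.5 FPKM, each group overlapped with the next. For Alpi the only gap in that order was between A10-FMT of set 1 and Sa of set 2, at 517 and 374 FPKM.

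Alppl2, the embryonic form, was low and narrow in range, from 2.28 to 5.47 FPKM. It was picked for Sa vs. Con-FMT, where the Con-FMT libraries of set 2 held 3.22, 2.82 and 2.28 FPKM and the Sa libraries 5.19, 5.47 and 4.18 FPKM. These did not overlap, as for 10.9% of all genes in that direction, and the ratio of the means was 0.561 (a log2 change of -0.66, given as a description, in a comparison with 0.0353% of genes called). All A10-FMT and A100-FMT libraries of set 2 were above every Con-FMT library of the set, as for 17% and 16.1% of genes. In set 1, Con-FMT held 2.68, 3.71 and 4.70 FPKM and Sa 4.14 and 5.08 FPKM, which overlapped. The log2 change in set 1 was -0.27, in a comparison with 26.9% of genes called (3051, against 1 without Sa replicate 3 of set 1 and 45 with the column of the description), and -0.06 with the column of the description, where Sa replicate 3 stood at 3.52 FPKM. It was -0.15 without that library and -0.11 when Con-FMT replicate 1 was left out. The description's column also moved Sa vs. A10-FMT of set 1 from -0.07 to 0.15 and Sa vs. A100-FMT of set 1 from -0.26 to -0.05.

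The A10-FMT libraries held 4.63, 4.16 and 4.24 FPKM of Alppl2 in set 1 and 3.35, 3.77 and 4.24 FPKM in set 2. A100-FMT held 3.55, 4.32 and 3.21 FPKM in set 1 and 4.20, 3.52 and 3.47 FPKM in set 2, so these 4 groups overlapped. Tested comparisons were A10-FMT vs. A100-FMT, with -0.19 in set 1 (95% interval -0.49 to 0.11, adjusted p = 0.428 from limma) and -0.02 in set 2 (95% interval -0.31 to 0.28, adjusted p = 1 from limma), and set 1 vs. set 2, with -0.16 in A10-FMT (adjusted p = 0.397 from limma) and 0.01 in A100-FMT (adjusted p = 0.981 from limma). None passed. Alpl, the tissue-nonspecific enzyme, was between 0 and 0.07 FPKM and listed at 0 in 10 of the 23 libraries, with 0.05 to 0.07 FPKM in Con-FMT of set 2 and 0 in all 3 A10-FMT libraries of set 2. These values are near the 0.01 step of the table, and no fold is given.

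Since Akp3 varied more than Alpi, the makeup of the family shifted. Akp3 made up 13.9% to 25.5% of the summed level in A10-FMT of set 1, 3.26% to 6.27% in Sa, 3.34% to 8.67% in Con-FMT and 5.24% to 12.5% in A100-FMT of that set. In set 2 the ranges were 6.48% to 22.4% in Sa, 9.60% to 20.2% in Con-FMT, 6.76% to 10.1% in A10-FMT and 7.63% to 14% in A100-FMT, which all overlapped. Summed over the members, the level was 585 to 742 FPKM in A10-FMT of set 1 and 277 to 342 FPKM in A10-FMT of set 2. These ranges follow from the levels that led to the choice of Akp3 and carry no test.

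Across the 23 libraries, Akp3 and Alpi varied together. Pearson's r of log2(FPKM + 1) was 0.75 over all libraries, 0.87 in set 1, 0.76 in set 2 and 0.56 without A10-FMT of set 1, while r with Alppl2 was 0.15 for Akp3 and 0.35 for Alpi. These are descriptions over libraries that share treatment, composition and possibly reads. Of all genes tested, the 5 most like Akp3 were S100g (calbindin-D9k, a vitamin D-induced calcium-binding protein of the duodenum), Otop3 (a proton channel), Foxq1 (a transcription factor), Reg1 (a secreted regenerating-family protein) and Tmprss15 (enteropeptidase, which activates trypsinogen in the duodenum), with r of 0.955, 0.931, 0.877, 0.862 and 0.841. After removing group means, r with S100g was still 0.94, so the likeness also held between libraries of a group.

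S100g stood at 218.06, 360.02 and 208.88 FPKM in A10-FMT of set 1, and at 163.75 FPKM in Sa replicate 1 of set 2, the library with the highest Akp3 of its set. The highest S100g of set 2 was 180.64 FPKM in Con-FMT replicate 2, second for Akp3 there. It was lowest, at 13.86 and 17.51 FPKM, in Con-FMT replicate 1 and Sa replicate 1 of set 1, which were also the lowest for Akp3. The 5 genes most like Alpi were Mogat2 (resynthesis of dietary fat), Slc7a7 (an amino acid transporter), Agpat2 (phospholipid and fat synthesis), Slc25a45 (a mitochondrial carrier) and Slc6a8 (the creatine transporter), with r of 0.898, 0.883, 0.876, 0.868 and 0.863. Removing group means left r at 0.512, 0.173, 0.452, 0.606 and 0.169. The likeness thus lay largely between groups for Slc7a7 and Slc6a8, and held in part within groups for Mogat2, Agpat2 and Slc25a45. For Alppl2 the 5 were Vapb, 2610318N02Rik, Aqp11 (a water channel), Arsa (a lysosomal sulfatase) and Ece1 (an endothelin-converting protease), with r of 0.74 down to 0.627.

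**Figure D4:**
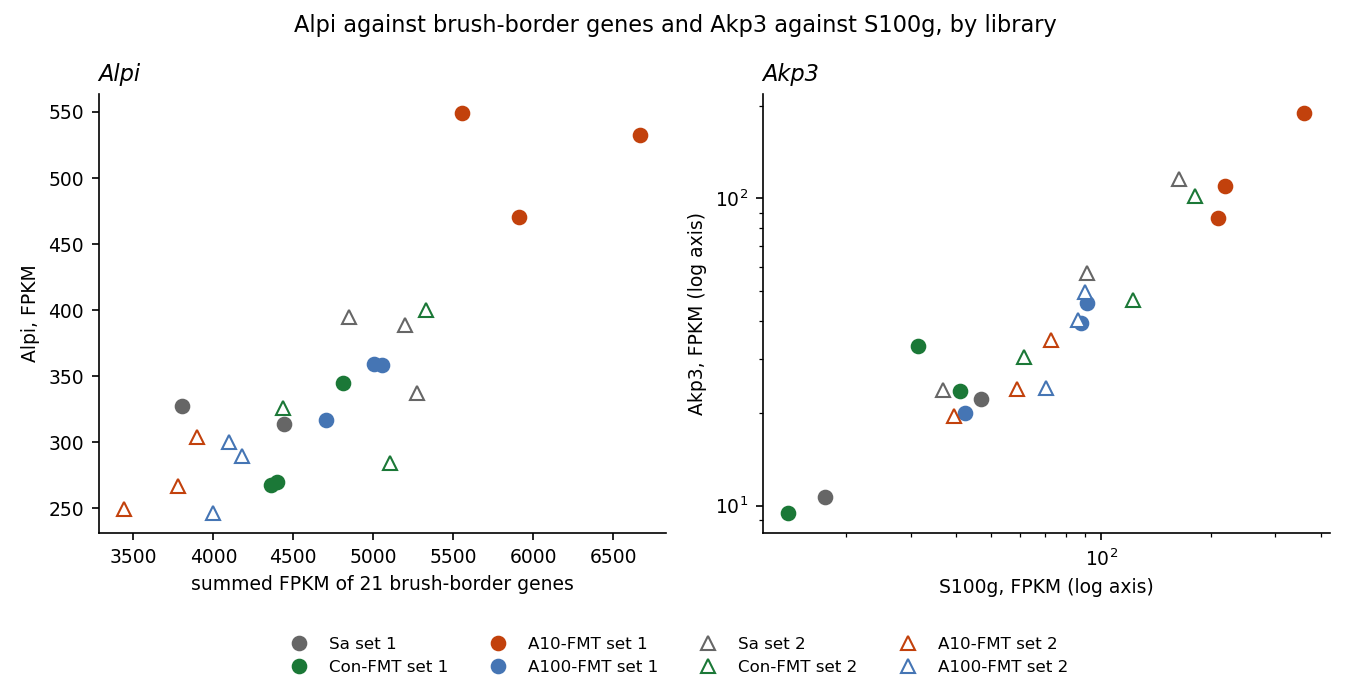
Left, Alpi in FPKM (y axis) against the summed FPKM of 21 brush-border genes (x axis), and right, Akp3 against S100g in FPKM on log axes, 1 point per library, with filled circles for set 1 and open triangles for set 2. The A10-FMT libraries of set 1 (filled, orange) lie at the top right of both panels, with brush-border sums of 5556 to 6669 FPKM.

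Brush-border genes other than phosphatases were called higher in part. A list of 21 brush-border hydrolases and microvillus genes had 12 of 21 higher and 0 lower in Con-FMT vs. A10-FMT of set 1, where 5.2% of all genes were called higher, with a median log2 change of 0.46 against -0.08 over all genes. The 3 most abundant were among them, with Anpep (aminopeptidase N) at 0.46, Vil1 (villin, which bundles actin in microvilli) at 0.31 and Cdhr5 (a cadherin linking microvilli) at 0.44 (adjusted p = 0.00194, 0.00269 and 0.00367 from limma). In set 2 the same comparison had 0 of 21 higher and 3 lower (Anpep, Ggt1 and Cdhr2, 0.37% of all genes called lower), and Anpep fell by 0.55 (adjusted p = 0.0315 from limma), while Vil1 and Cdhr5 had -0.20 and -0.35 (adjusted p = 0.167 and 0.0877). The calls in set 2 depended on single libraries. Without Con-FMT replicate 2 or 3, or A10-FMT replicate 2 or 3, of set 2, 0 genes were called in it. Without replicate 1 of Con-FMT or of A10-FMT, 135 and 59 were called. The difference between the sets was called lower for 16 of 21, against 6.7% of all genes. Sa vs. A10-FMT of set 2 had 4 of 21 lower (0.335% of all genes), and A10-FMT vs. A100-FMT of set 1 had 6 of 21 lower (1.71%).

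Another list held genes that break down nucleotides, the products of nucleotides, or related phosphate esters, at the brush border and inside enterocytes. In Con-FMT vs. A10-FMT of set 1, 7 of 11 tested were higher and 0 lower, against 5.2% of all genes higher, and the most abundant were Xdh (xanthine dehydrogenase, 0.47, adjusted p = 0.00733 from limma), Pnp (purine nucleoside phosphorylase, 0.37, adjusted p = 0.00195) and Enpp7 (an alkaline sphingomyelinase, 0.63, adjusted p = 0.0188). In set 2, 0 of 11 were higher and 2 lower (Enpp3 and Enpp7), against 0.37% of all genes lower, with -0.95 for Enpp7 (adjusted p = 0.0315 from limma). Of 8 tested genes of phosphate and calcium transport, 2 were higher in set 1 (S100g, by 3.23, adjusted p = 0.00119, and Slc34a2, the sodium-phosphate cotransporter NaPi-IIb, by 0.48, adjusted p = 0.00436 from limma) and 1 lower (Slc20a2), where 5.2% of all genes were higher and 11.5% lower. S100g was the gene most like Akp3, and the A10-FMT libraries of set 1 led to the choice of Akp3. The call of S100g is therefore no separate support. In set 2, where 0.37% of all genes were lower, Slc34a2 fell by 0.60 (adjusted p = 0.0315 from limma) and S100g had -0.99 (adjusted p = 0.476). The calls of Enpp3, Enpp7 and Slc34a2 in set 2 were lost without Con-FMT replicate 2 or 3, or A10-FMT replicate 2 or 3, of set 2. Vdr, the vitamin D receptor, had -0.07 in set 1 (adjusted p = 0.583 from limma) and -0.11 in set 2 (adjusted p = 0.646).

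Of 28 tested genes that make and attach the GPI anchor, 0 were higher and 2 lower (Pigb and Gpld1) in Con-FMT vs. A10-FMT of set 1, where 5.2% of all genes were higher and 11.5% lower, and in set 2 none was called, against 0.379% of all genes. The most abundant, Pigt, Pigs and Dpm3, had -0.10, -0.07 and 0.07 (limma adjusted p = 0.417, 0.457 and 0.796). Of 16 tested genes of LPS recognition and signalling, 2 were higher (Irak2 and Tollip) and 2 lower (Irak1 and Nfkb1) in set 1, beside the same shares over all genes, and none was called in set 2, and the LPS co-receptor Cd14 had 0.01 and 0.13 (limma adjusted p = 0.977 and 0.748).

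Some markers of position along the intestine and of crypt and goblet cells were called in Con-FMT vs. A10-FMT of set 1, and a lower level of a gene in bulk tissue cannot be told apart from fewer cells that make it. Proximal markers, with Rbp2 (a retinol-binding protein), Fabp1 (a fatty acid-binding protein) and S100g as the most abundant, summed to 4489 to 5632 FPKM in A10-FMT of set 1, 2690 to 2838 in Con-FMT of set 1 and 1937 to 2921 in A10-FMT of set 2. In Con-FMT vs. A10-FMT of set 1, 4 of 12, S100g among them, were called higher and 0 lower, against 5.2% of all genes higher. Distal markers, led by Fabp6, Slc51a and Slc51b of bile acid transport, were higher in the same group, at 1468 to 1842 FPKM against 1026 to 1189 in Con-FMT of set 1, with 3 of 9 called higher and 0 lower (5.2% of all genes higher). In set 2, none of the proximal or distal markers was called in Con-FMT vs. A10-FMT, where 0.379% of all genes were called. Crypt proliferation genes went the other way, at 631 to 685 FPKM in A10-FMT and 835 to 909 in Con-FMT of set 1, and at 892 to 983 in A10-FMT of set 2. Of these, 0 of 10 were higher and 7 lower in set 1, where 11.5% of all genes were lower, among them Olfm4, Pcna and Top2a (-0.45, -0.22 and -0.45, adjusted p = 0.0476, 0.0326 and 0.0201 from limma), and in set 2 none was called. With trimmed-mean scaling, 2 of 10 were lower, and over all genes 850 were higher and 596 lower in place of 590 and 1301.

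Goblet cell genes had 2 of 7 higher (Muc2 and Clca1), against 5.2% of all genes, and their sums were 7748 to 8879 FPKM in A10-FMT and 6612 to 8312 in Con-FMT of set 1. Their most abundant genes Zg16, Tff3 and Agr2 were not called (0.30, 0.22 and 0.11, adjusted p = 0.195, 0.312 and 0.358 from limma). Among T cell, B cell, smooth muscle and pancreatic acinar genes, 3, 1, 1 and 1 could be tested and none was called in this comparison (16.7% of all genes in either direction), and fibroblast, endothelial and neutrophil genes were too low to test. T cell sums were 6.81 to 12.8 FPKM in A10-FMT and 6.83 to 15.9 in Con-FMT of set 1, and pancreatic acinar sums 4.51 to 8.45 and 3.60 to 4.24. In set 2, T cell sums were 4.45 to 6.40 in A10-FMT and 7.69 to 25.1 in Con-FMT. The part of cell composition or of the stretch of intestine sampled in the Alpi and Akp3 values was not tested.

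**Figure D5:**
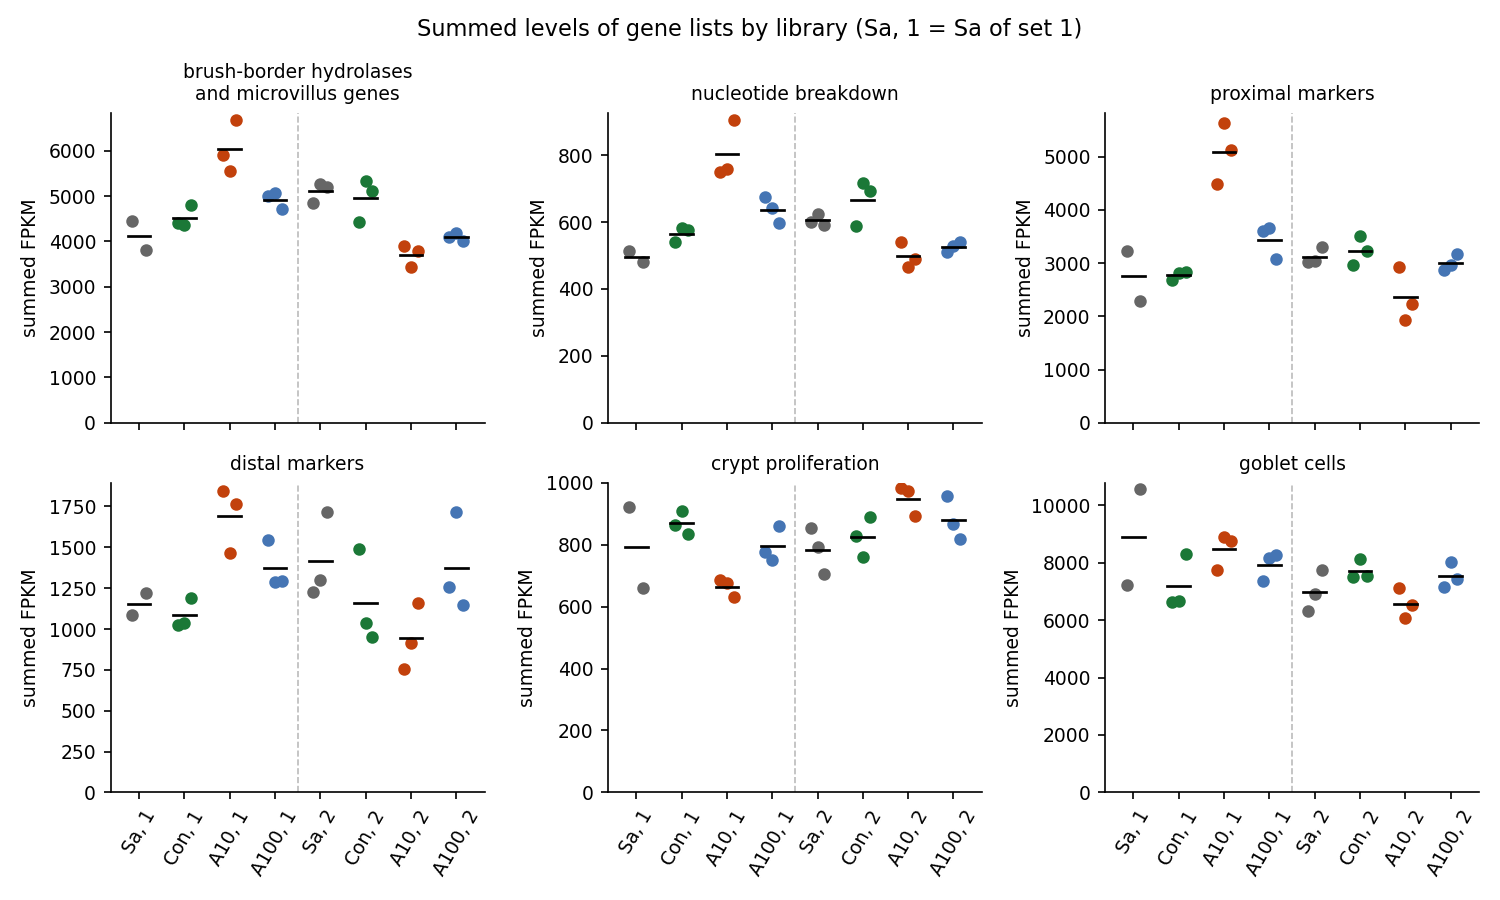
Summed levels in FPKM (y axis) of 6 gene lists by group (x axis, treatment and set), 1 point per library and a line at the group mean. In A10-FMT of set 1 brush-border, nucleotide, proximal and distal lists are highest and crypt proliferation lowest on average (664 FPKM), and in A10-FMT of set 2 the brush-border mean is the lowest (3707 FPKM) and the crypt mean the highest (949 FPKM).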

How the data were processed

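Total RNA of mouse small intestine was sequenced on an Illumina HiSeq instrument by the study. The deposited values are FPKM made by the authors (the study's methods describe RPKM), with build mm10 in the submitters' processing notes. The aligner, annotation and treatment of reads with several matches are not given in the sources used here. The study's DEGseq test needs read numbers and was not used.

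Levels were tested with limma 3.58.1 in R 4.3.3 on log2(FPKM + 1), with 1 mean for each of 8 groups over 23 libraries, a trended prior variance, and Benjamini-Hochberg adjustment over the 11337 of 19215 entries with a mean of at least 1 FPKM, at 0.05. Changes understate those of low genes. The script was tested on simulated data. The members, lists and tests were chosen with earlier results of these data known. Named genes were the members, the 3 most abundant genes of each list, and the 5 genes most like each member, and other names were chosen after their values were seen. Alternatives were another pseudocount, filters, 2 scalings, fewer groups, a replicate block, array weights, the description's column and leaving out each library. Transcripts came from GENCODE and promoters from RefSeq. Same-numbered replicates of different groups, pooled over all groups, did not deviate together (median r -0.01 over 77 pairs, from -0.35 to 0.32). The list of enterocyte transcription factors is not reported here.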

Additional observations from a re-analysis of the deposited data

Results flagged for a closer look

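The change of Alpi in Con-FMT vs. A10-FMT differed between the sets, by -1.11 on the log2 scale (set 2 minus set 1, standard error 0.17, adjusted p = 0.000502 from limma, 20.8% of genes called), with all 3 A10-FMT libraries above every Con-FMT library in set 1 (as for 12.2% of all genes) and 2 of 3 below every one in set 2. That test was added after the Alpi values had been seen, and it uses the A10-FMT libraries of set 1 that led to the choice of Akp3. In Sa vs. A10-FMT, all 3 A10-FMT libraries lay above both Sa libraries in set 1 (0.69) and below all 3 Sa libraries in set 2 (-0.45), a difference of -1.14 that was not tested because the set 1 comparison led to the choice of the family. Of all genes, 13.9% lay higher without overlap in set 1 and 11.4% lower in set 2. The Sa libraries of set 1 include replicate 3, which stood apart.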

How the results depend on the processing

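Of 248 recomputed values of tested member comparisons other than those leaving out a library, 242 kept their direction and their side of the threshold, as did 171 of 184 with 1 library left out. For Alpi, Con-FMT vs. A10-FMT of set 1 stayed between 0.76 and 0.94, its difference between the sets between -1.23 and -0.98 and A10-FMT between the sets between -1.02 and -0.86, all past the threshold. A10-FMT vs. A100-FMT of set 1 was -0.58 (adjusted p = 0.0528) with only the compared groups fitted and -0.65 to -0.52 with 1 library left out. Array quality weights brought 2 changes of Alpi from Sa in set 2 past the threshold, to A10-FMT (-0.44) and to A100-FMT (-0.37), as quantile normalization did for Sa between the sets (0.37). With weights, 1771 and 1450 genes were called in the former comparisons, and quantile normalization called 3573 in the latter. Small changes turned sign. With 1 library left out, A10-FMT vs. A100-FMT of set 2 ran from -0.04 to 0.11 for Alpi and -0.09 to 0.05 for Alppl2, and A100-FMT between the sets from -0.21 to 0.42 for Akp3 (-0.04 with weights) and -0.06 to 0.11 for Alppl2 (-0.01 with trimmed-mean scaling). The causes were not tested. Alppl2 gave no value with a mean of at least 5 FPKM.

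With pairs from all groups pooled, same-numbered replicates did not deviate together. This pooled check cannot show whether libraries of the same treatment in both sets share mice. The comparisons between the sets treat them as independent. With the replicate block, Alpi gave 0.82 (adjusted p = 0.00151 from limma) in Con-FMT vs. A10-FMT and -0.58 (adjusted p = 0.0212) in A10-FMT vs. A100-FMT of set 1, and no call of a member changed. Counts of called genes moved more. Con-FMT vs. A10-FMT of set 1 had 1891, and 946 to 1563 without 1 library, 3164 with weights and 3725 with the column of the description. A10-FMT vs. A100-FMT of set 1 had 642, and 0 with only the compared groups (3353 at an unadjusted p under 0.05), 354 with quantile normalization, 418 with trimmed-mean scaling, 1978 with weights, 2292 with the description's column and 27 without A100-FMT replicate 3. The difference between the sets had 2354, and 3628 with only the compared groups, 4503 with weights and 4204 with the description's column. A10-FMT between the sets had 3450, and 5591 and 5413 with the last 2. Sa vs. A10-FMT of set 2 had 48, and 2 with no filter, 154 with only the compared groups, 1771 with weights and 352 with the description's column, and Con-FMT vs. A10-FMT of set 2 had 43, and 0, 0, 1090 and 179 under these settings, 66 with a mean of at least 5 FPKM, 75 with quantile normalization and 98 with trimmed-mean scaling. Without 1 library, Sa vs. A10-FMT of set 2 had 1 to 52 and Con-FMT vs. A10-FMT of set 2 had 0 to 135. The depth in reads is unknown, so precision rests on 2 or 3 libraries per group.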
